A study of Mus musculus with 42 samples.

Results

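This section describes stretches of the mouse genome that lay deep inside expressed genes and carried almost no DNA methylation. The unit is a tile of 100 bp with its percent methylation as the authors deposited it. A tile was taken when its mean over the 9 methylation libraries was under 10%, when it lay between the start and end of a gene in the expression table, and when it was more than 2000 bp from the start and end of every gene there. Of 141251 tiles in all, 5147 met the rule. They were 15.4% of the 33497 tiles that met both conditions on position (called gene body tiles here) and 9.36% of the 54972 tiles with a mean under 10% anywhere. They lay in 1281 of the 6322 genes that had any gene body tile. The tiles were chosen by their mean over all 9 libraries, so their low methylation is a description and was not tested.

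In mammals most CpG sites are methylated, and the bodies of transcribed genes are usually methylated along their length. CpG islands, the CpG-rich stretches at many gene starts, are the main exception: they stay unmethylated in most tissues, and zinc finger proteins that bind unmethylated CpG keep promoter chromatin in place there. Islands inside genes are known to include alternative promoters, starts of antisense and other noncoding RNAs, and coding exons of developmental regulators. Reduced representation bisulfite sequencing (RRBS) reads methylation in CpG-rich fragments and therefore covers such islands well.

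The study gave C57BL/6J males, wild type and 8 weeks old at the start, a vehicle (0 mg/kg/day), 2.5 mg/kg/day (low) or 25 mg/kg/day (high) of DEHP, a phthalate plasticiser, for 67 days and mated them with females that were not exposed. Sperm of C57BL/6 males at 14 weeks, and wild type embryonic and extra-embryonic tissue of their C57BL/6 * DBA/2J offspring at embryonic day 7.5, labelled male, make up the 42 samples of the labels. The methylation table analysed here has 3 control, 3 low and 3 high libraries, and the expression table has 2 of each. Each column is named by treatment and number, without a tissue, so control, low and high refer to the exposure of the father. By its names the methylation table cannot be assigned to sperm, embryo or extra-embryonic tissue. All RNA samples of the labels are from embryonic day 7.5, so the expression table is not from sperm. Its names do not tell embryonic from extra-embryonic tissue.

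The tissue of the tables was set against known marker regions. Within 500 bp of the start of genes whose germline region is methylated on the maternal allele, 7 of 9 measured genes (13 listed) had a mean between 20 and 80%, with a median of 39.4%. Starts of germline genes had 33.1 to 66.4% (7 of 10 measured). The maternal germline regions and the germline gene starts are both known to be unmethylated, or nearly so, in sperm. The middle values are unlike that, while Grb10 (3.70%) and Inpp5f (5.37%) of the first list were low. No column was assigned to a tissue by this check. The start of the trophoblast gene Elf5 had 44.3% and that of the pluripotency gene Pou5f1 47.7%. The expression columns listed 8 of 8 embryonic, 7 of 9 trophoblast (Elf5 and Tpbpa have no line) and 6 of 6 visceral endoderm markers. A line gives presence and not level. Over all libraries the embryonic markers had 28.9 to 541 CPM and the visceral endoderm markers 36.3 to 1021 CPM. Of the trophoblast markers, Ascl2 and Gata3 had at most 5.05 CPM and Krt7 had 7.13 to 21.1 CPM. Cdx2, Eomes, Hand1 and Krt8 had 13.3 to 268 CPM. No read coverage stands beside the percentages, so how precisely each tile was measured is not known, and the expression columns amounted to 153 to 194 times 1e6 of their smallest steps. The gene coordinates overlapped RefSeq genes of the same symbol in GRCm38.p6 for 100% of 12724 genes, and all positions here are in that build.

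The sequence of a tile could be read where it lay whole inside a RefSeq start window (250 bases before to 50 after a start, GRCm38.p6), which held for 577 of the 5147 tiles. Because that is well under the whole set, no statement on base composition is made for the others. The following 7 tiles are shown because they belong to genes described below and lie wholly upstream of an annotated start that falls inside the gene. Each is written 5′ to 3′ on the strand of the RefSeq gene, with every CpG in capitals.
Runx1, chr16:92697401-92697500, minus strand: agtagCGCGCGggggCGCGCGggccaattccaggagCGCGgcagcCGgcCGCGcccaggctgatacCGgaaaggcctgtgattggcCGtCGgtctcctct
Ptch1, chr13:63565801-63565900, minus strand: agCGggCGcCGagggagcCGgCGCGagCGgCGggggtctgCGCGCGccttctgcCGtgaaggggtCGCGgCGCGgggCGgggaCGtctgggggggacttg
Gnas, chr2:174329801-174329900, plus strand: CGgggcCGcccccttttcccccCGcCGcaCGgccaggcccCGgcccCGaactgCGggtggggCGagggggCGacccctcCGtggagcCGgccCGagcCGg
Jade1, chr3:41564701-41564800, plus strand: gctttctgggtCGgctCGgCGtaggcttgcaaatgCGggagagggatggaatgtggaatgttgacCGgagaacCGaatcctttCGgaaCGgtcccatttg
Rreb1, chr13:37825901-37826000, plus strand: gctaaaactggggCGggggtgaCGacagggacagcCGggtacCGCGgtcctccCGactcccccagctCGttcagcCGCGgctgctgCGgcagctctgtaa
Gse1, chr8:120535701-120535800, plus strand: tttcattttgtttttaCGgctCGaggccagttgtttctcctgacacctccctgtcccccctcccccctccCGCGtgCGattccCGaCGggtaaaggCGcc
Ndrg4, chr8:95702901-95703000, plus strand: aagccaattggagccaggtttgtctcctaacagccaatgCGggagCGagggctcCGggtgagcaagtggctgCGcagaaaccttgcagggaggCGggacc

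Their mean methylation was 0.447% in Runx1, 1.57% in Ptch1, 4.81% in Gnas, 0.406% in Jade1, 6.01% in Rreb1, 1.89% in Gse1 and 6.56% in Ndrg4. They held 14, 18, 14, 8, 10, 8 and 5 CpGs in the same order. For contrast, 3 gene body tiles with a mean of 80% or more that also lie upstream of a RefSeq start are shown next.
Mical3, chr6:120958701-120958800, plus strand, upstream of Gm43915: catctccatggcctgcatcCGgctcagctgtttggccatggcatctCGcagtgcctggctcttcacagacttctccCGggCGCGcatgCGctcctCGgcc
Pcnt, chr10:76388901-76389000, plus strand, upstream of 1700094J05Rik: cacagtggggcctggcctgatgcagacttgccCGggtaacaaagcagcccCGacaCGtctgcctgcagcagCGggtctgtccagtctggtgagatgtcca
Fam53b, chr7:132777001-132777100, minus strand, upstream of Fam53b: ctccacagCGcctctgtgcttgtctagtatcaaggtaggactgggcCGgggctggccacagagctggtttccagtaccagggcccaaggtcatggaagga

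These tiles had 7, 4 and 2 CpGs and mean methylation of 93.5% in Mical3, 91.9% in Pcnt and 90.6% in Fam53b. A further tile of this kind, in Myo18a upstream of Gm36875, had 5 CpGs and 91.7% and is not shown. Over the 577 weakly methylated tiles inside a start window the median was 10 CpGs (quartiles 7 and 13) with a GC content of 71%. The 207 tiles of 10 to 80% there had a median of 6 CpGs and a GC content of 65%, the 34 tiles of 80% or more had 4 CpGs and 58.5%, and all 98553 pieces of the same length cut from the start windows had 2 CpGs and 53%. The motif GGGCGG, searched on both strands and known as the GC box bound by Sp factors, stood in 52.2% of the weakly methylated tiles, 33.3% of the intermediate ones, 2.94% of those of 80% or more and 17.0% of all pieces. The counts describe letters in these windows only.

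Gene body tiles spread over the whole range of methylation. Besides the 15.4% with a mean under 10%, 46.8% had a mean of 10 to 80% and 37.9% a mean of 80% or more. Within the weakly methylated tiles the mean had quartiles of 0.726, 2.97 and 6.17%, 1555 tiles were under 1% and 8 tiles were at 0 in all 9 libraries. In 4022 of them (78.1%) every library was under 10%. The limit of 10% cut through a continuous range, since 287 tiles had a mean of 9 to 10% and 261 tiles a mean of 10 to 11%. The median SD over libraries was 2.37 points just inside the limit and 2.46 points just outside it.

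**Figure D1:**
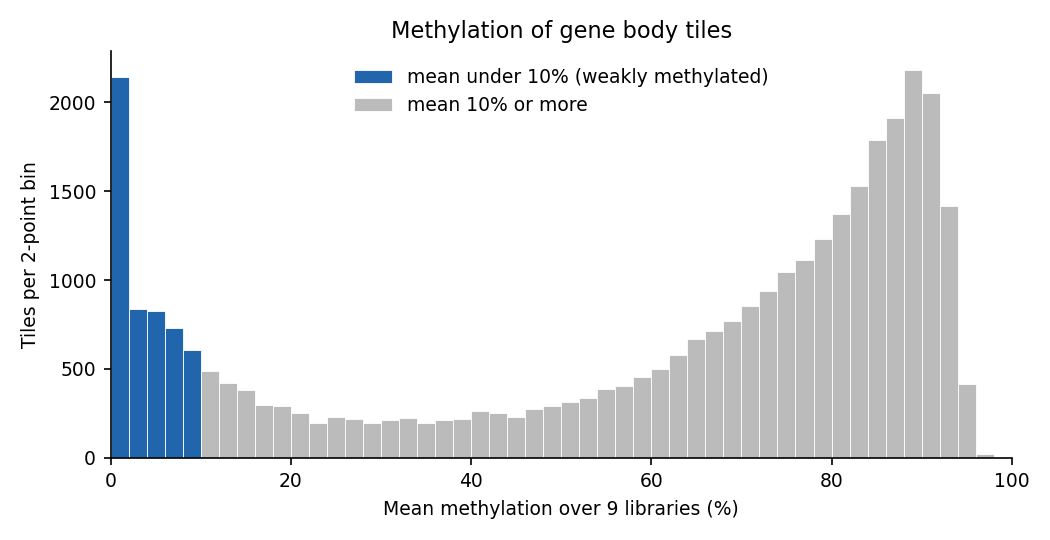
Number of gene body tiles (y axis, tiles per bin of 2 percentage points) by mean methylation over the 9 libraries (x axis, percent), with tiles under 10% in blue and the other gene body tiles in grey. The lowest bin holds 2143 weakly methylated tiles, and the grey bars peak at 2181 tiles between 88 and 90%.

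Many of the tiles lay close together. Runs were not counted over all other gene body tiles, so this closeness is not given as particular to these tiles. Joined where the gap was at most 500 bp, they formed 1569 runs with a median of 3 tiles, and 370 runs of 5 or more tiles held 2527 of them (49.1%). Tiles in these longer runs had a median methylation of 2.30%, and the 430 tiles that stood alone had 5.21%. The longest run was in Brd3, which encodes a BET protein that reads acetylated histones: 16 tiles at chr2:27474601-27476300 with a mean of 2.53%. Runs of 14 tiles lay in Rreb1 (chr13:37825901-37828000), a zinc finger factor downstream of Ras, in Runx1 (chr16:92696801-92699000, 1.61%), the factor that founds definitive blood, and in Hmgb1 (chr5:149051401-149053700, 3.30%), a chromatin protein. A run of 13 tiles lay in Arid1a, a subunit of the BAF chromatin remodeller (chr4:133751901-133754000, 1.31%), and one of 12 tiles in Tet1, which oxidises 5-methylcytosine (chr10:62885901-62887400, 2.26%).

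Both states often stood in the same gene. In 656 genes a weakly methylated tile and a tile of 80% or more were both present, and over these genes the median of the weakly methylated tiles was 3.55% and that of the strongly methylated ones 86.8%. In 173 genes every gene body tile was weakly methylated. Of the 1281 genes, 260 held 1 such tile, 418 held at least 5 and 80 held at least 10. The X chromosome had 100 weakly methylated tiles among 326 gene body tiles (30.7%), against 15.2% on the autosomes, and 41 of the 100 belonged to the single gene Bcor.

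Many of the tiles lay at starts that RefSeq places inside the gene. The start table covers the gene of 4135 tiles (80.3%), and of these 2433 (58.8%) lay within 1000 bp of a RefSeq start of the same gene, in 643 genes. A further 278 tiles (6.72%) in 98 genes lay within 1000 bp of the start of a gene that has no line in the expression table, of which 210 tiles were at 79 lncRNA genes and 68 at 22 protein coding genes. No start lay within 1000 bp for 1420 tiles in 435 genes, and 839 tiles (20.3%) were over 5000 bp away. Median methylation was 2.44% for tiles at a start of the same gene, 2.78% at the start of a gene without a line and 3.90% for tiles with no start nearby.

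For the tiles of 10 to 80% and of 80% or more the start table covers the gene of 78.6 and 79.4%, so the classes were set side by side with the RefSeq gene list, which gives the ends of genes but no alternative starts. Of the weakly methylated tiles, 1716 of 5147 (33.3%) were within 1000 bp of a start or end of a RefSeq gene, against 8.65% of the tiles of 10 to 80% and 4.38% of those of 80% or more. The distance to the nearest start or end of a gene in the expression table, which the rule limits from below, had a median of 9298 bp for the weakly methylated tiles, 14621 bp for those of 10 to 80% and 11998 bp for those of 80% or more.

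**Figure D2:**
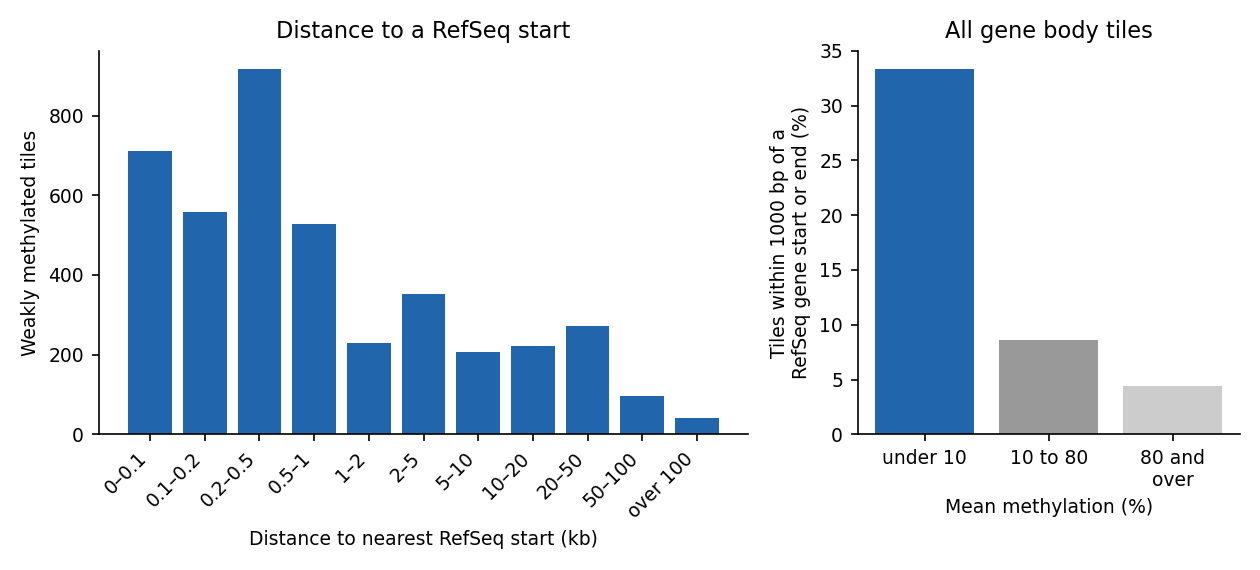
Left, number of weakly methylated tiles (y axis) by distance to the nearest RefSeq start in kb (x axis, bins of unequal width) for the 4135 tiles whose gene has a start entry. Right, percent of gene body tiles within 1000 bp of a RefSeq gene start or end (y axis) by class of mean methylation (x axis): 33.3% of tiles under 10%, 8.65% of tiles of 10 to 80% and 4.38% of tiles of 80% or more.

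Some gene lines in the expression table are longer than the gene in RefSeq, and this changes what inside means. Of 5131 tiles whose gene has a RefSeq span, 343 (6.68%) lay outside it, against 2.35% of the other gene body tiles. One such case was Fgfr2, a receptor of fibroblast growth factors: its line covers 2960900 bp, the RefSeq gene 104358 bp, and only 7 of its 32 weakly methylated tiles lay within the RefSeq gene. The rest of that line spans other genes, among them Hmx3 and Hmx2, homeobox genes of the inner ear, near whose starts 6 tiles (mean 5.77%) and 4 tiles (mean 4.75%) lay. All weakly methylated tiles of Gnas, Runx1, Arid1a, Bcor, Rreb1, Gse1, Jade1, Ptch1, Nr2f2, Auts2, Ank2 and Shank3 lay within the RefSeq gene, and so did each single tile compared between groups below. Whether a tile was exonic or intronic was not determined, since no exon annotation was used here.

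In Gnas weakly and more strongly methylated tiles lay close together. This imprinted gene encodes the stimulatory G protein alpha subunit and has several upstream alternative promoters, some of which are methylated on 1 parental allele. Its 9 weakly methylated tiles at chr2:174329701-174331000 had means of 0.372 to 8.31% and lay within 1000 bp of a RefSeq start of Gnas. Only 900 bp before them, 6 tiles at chr2:174327801-174328800 had 28.8 to 44.5%. A further 10 tiles at chr2:174299001-174300500 had 40.2 to 62.4%, and 2 single tiles behind the weakly methylated run had 84.0 and 88.8%. The 9 tiles averaged 3.13 ± 0.490% in high libraries and 2.84 ± 0.220% in low libraries, against 2.96 ± 0.516% in control libraries (SD over libraries, n = 3 each). The groups overlapped.

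Runx1 (ENSMUSG00000022952) carried 19 weakly methylated tiles of 45, all within chr16:92695601-92699000, where RefSeq has an internal start of the gene. Runx1 is known to be transcribed from a distal and a proximal promoter, the proximal one lying in a CpG island. Its 11 tiles of 80% or more had a mean of 86.5%, and the nearest tile on the lower side, 2500 bp away, had 54.5%. The 19 tiles averaged 2.34 ± 0.166% in high and 2.56 ± 0.113% in low libraries, against 2.58 ± 0.359% in control libraries. Runx1 RNA was low, at 3.90 and 4.53 CPM in high, 3.87 and 3.65 CPM in low and 4.36 and 2.78 CPM in control libraries.

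Arid1a, by comparison, was among the more abundant RNAs of these genes, at 362 and 334 CPM in high, 378 and 343 CPM in low and 372 and 372 CPM in control libraries. Its 14 weakly methylated tiles (0.210 to 5.01%) lay at 1 end of the gene, and its 4 tiles at the other end had a mean of 91.6%. Weakly methylated tiles stood in genes of low and of high RNA level alike. Over the 1281 genes the median level was 19.3 CPM, against 20.7 CPM for the 5041 genes with gene body tiles but no weakly methylated one. CPM are not scaled to gene length, and the median gene length was 48943 bp for the genes with weakly methylated tiles and 38496 bp for the others.

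Bcor (ENSMUSG00000040363), on the X chromosome, encodes the BCL6 corepressor of a variant Polycomb complex and held the most weakly methylated tiles of any gene, 41 of 73. Unlike those of Gnas and Runx1 they were scattered in 13 runs from chrX:12078101 to chrX:12156400, and 0 of them lay within 1000 bp of a RefSeq start, the nearest being 3996 bp away. Their means were 1.90 to 9.47%. They averaged 6.74, 8.52 and 4.67% in the high libraries and 3.81, 5.50 and 6.84% in the low libraries, against 6.04, 8.75 and 6.198% in the control libraries. The groups overlapped, and the spread within a group was as wide as the differences between group means.

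**Figure D3:**
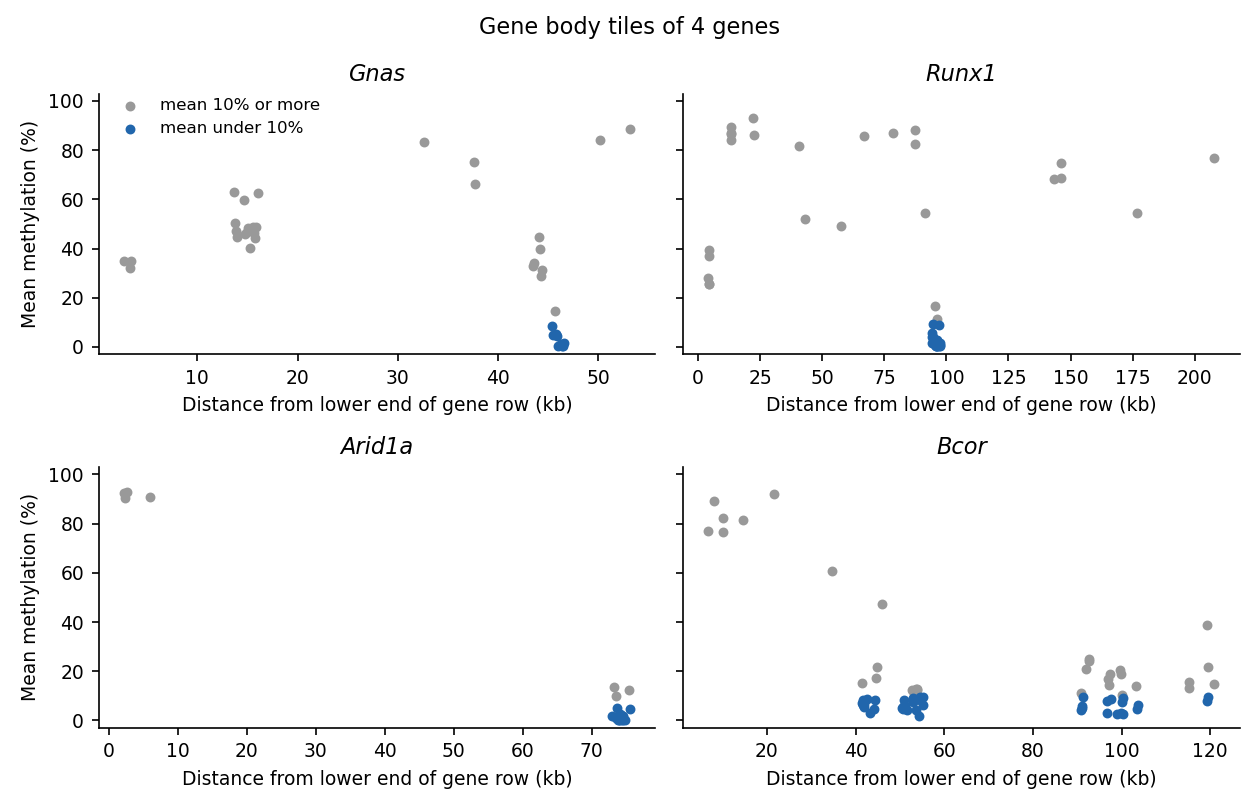
Mean methylation over 9 libraries (y axis, percent) of every gene body tile in Gnas, Runx1, Arid1a and Bcor, by distance in kb from the lower end of the gene's line in the expression table (x axis), blue for tiles under 10% and grey for the others. The blue tiles of Gnas, Runx1 and Arid1a stand together in 1 place, and the 41 of Bcor are scattered.

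Further genes with many such tiles were of several kinds. Nr2f2, an orphan nuclear receptor of mesoderm and vessels, held 15 weakly methylated tiles of 23 with a mean of 2.15%, at least 3133 bp from a start, and its RNA was at 0.696 to 2.13 CPM. Auts2, which joins a Polycomb complex, held 16 (mean 3.46%) in 2 runs, and since the start table has no entry for it, no distance to its own starts is given. Counting only tiles with no RefSeq start within 1000 bp, Rai1, a transcriptional regulator, held 15 (4.50%) and Agap1 13 (2.39%, the nearest 18642 bp from a start). Pde4d, a cAMP phosphodiesterase, held 11 of this kind (3.25%, the nearest 103123 bp from a start). Any tiles of these genes nearer to a start are not in those counts. Starts of genes with no line of their own were found in Cdh23, a cadherin of hair cells, with 9 tiles at the lncRNA gene Gm51803 (3.14%), in Tcf20 with 8 at Gm20324 (5.43%) and in Sall1, a zinc finger factor of kidney development, with 7 at Gm3134 (4.47%).

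Gene lists with roles in the early embryo were described by how many of their genes held a weakly methylated tile. The lists were chosen with earlier results of these data known, and the counts are a description beside the 20.3% of all 6322 genes with a gene body tile. Of the transcription factors of gastrulation and patterning, 27 of 47 (57.4%) held one, among them Gata4, Gata6, Sox17, Cdx2 and Lhx1. Of the regulators of DNA methylation and chromatin, 17 of 30 (56.7%) did, including the DNA methyltransferases Dnmt1 and Dnmt3a and the dioxygenases Tet1, Tet2 and Tet3. Signalling genes had 22 of 46 (47.8%), with the ligands Shh, Bmp2, Wnt3 and Fgf4 and the receptors Ptch1, Notch1 and Fzd5.

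The other lists lay near the share of all genes. Imprinted genes had 5 of 22 (22.7%), which were Blcap, Gnas, Igf2, Jade1 and Sfmbt2, and genes of actin, adhesion and matrix had 5 of 23 (21.7%), which were Ank2, Cdh2, Fat1, Hspg2 and Shank3. In Shank3, a scaffold of the postsynapse, the 5 tiles averaged 5.60, 4.09 and 4.54% in high libraries and 5.74, 5.76 and 6.57% in low libraries, against 8.54, 7.68 and 7.59% in control libraries. The 3 groups did not overlap, but a mean over the tiles of a gene was not tested. How many other genes separate in the same way was not counted. Its level of RNA was 12.6 and 12.4 CPM in high, 7.94 and 11.01 CPM in low and 11.3 and 9.46 CPM in control libraries. In Ptch1, the Hedgehog receptor, 13 tiles averaged 3.09 ± 0.734% in high and 2.47 ± 0.227% in low, against 2.89 ± 0.0985% in control libraries (SD, n = 3 each).

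Across libraries the 5147 tiles differed little in level. By dose, their mean methylation was 3.57, 3.93 and 3.63% in control, 3.31, 3.62 and 3.798% in low and 3.61, 3.59 and 3.77% in high libraries. The group means were 3.71 ± 0.192%, 3.58 ± 0.247% and 3.66 ± 0.0997% (SD, n = 3 each) and the groups overlapped. Medians were lowest in low 1 (2.10%) and control 1 (2.30%) and highest in control 2 (3.09%), and control 1 had the largest share of tiles at 0, 16.6%, where the other 8 libraries had 10.9 to 13.2%. A single tile had a median SD over the 9 libraries of 1.12 points.

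**Figure D4:**
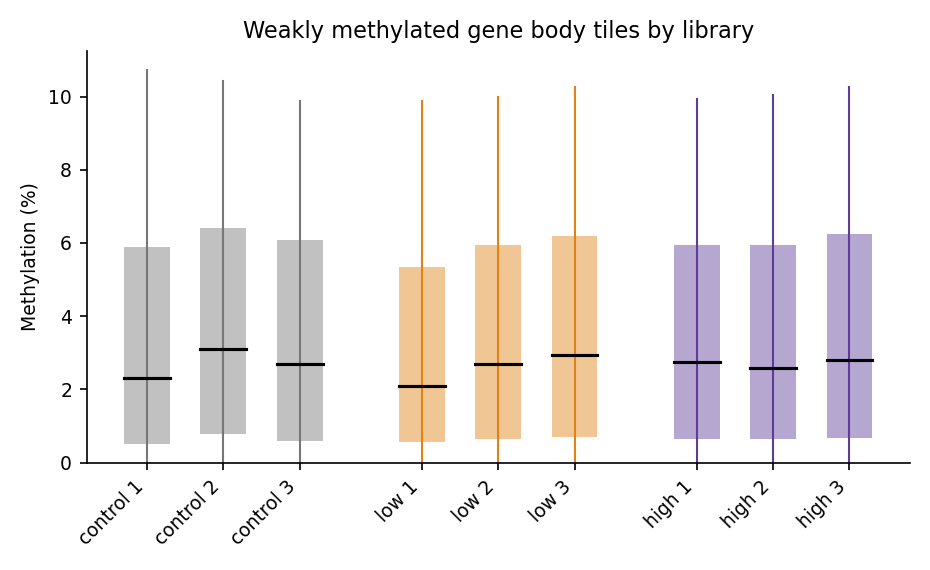
Methylation of the 5147 weakly methylated gene body tiles in each library (y axis, percent) by dose group and library number (x axis); the box spans the quartiles, the black line is the median and the thin line runs from the 5th to the 95th percentile. Medians lie between 2.10 and 3.09%, and the groups overlap.

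A few tiles varied far more. The tile with the largest SD, 10.3 points, lay in Ndrg4 106 bp from a RefSeq start and is printed above. It had 1.72, 2.48 and 3.96% in high libraries and 0, 33.3 and 8.26% in low libraries, against 1.01, 3.33 and 4.96% in control libraries. Its spread came from the library low 2, the only library in which any of the 5147 tiles exceeded 30%. In Septin9, a cytoskeletal GTPase (chr11:117267501-117267600), values were 0.826, 1.02 and 21.6% in high and 9.27, 1.56 and 12.4% in low, against 0, 15.0 and 6.85% in control libraries. High 3 and control 2 stood above the others of their groups.

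No weakly methylated tile passed the test between low and control. With limma on percent methylation, fitted over all tiles with Benjamini-Hochberg adjustment at 0.05, 0 of 5147 were called, and percent called over all 141251 tiles was 0%. The lowest adjusted p among the 5147 was 0.487. At an unadjusted p under 0.05 there were 128 (2.49%, against 5.49% of all tiles), 54 higher and 74 lower in low (3.26 and 2.23% of all tiles). That share depended on the variance model: with a mean-variance trend in limma it was 265 (5.15%, against 5.26% of all tiles), and on a log2 ratio scale 250 (4.86%, against 5.23%), again with 0 called after adjustment.

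The median difference, low minus control, was -0.05 points over the 5147 tiles (0.03 points without control 2) and 0.07 points over all tiles, and 95% of the tiles lay between -3.57 and 2.90 points. Every low library was above every control library in 218 tiles (4.24%, against 5.26% of all tiles) and below in 261 (5.07%, against 4.27%). Differences over 5 points were found in 27 tiles upward and 48 downward. The corresponding shares were 0.525 and 0.933%, against 9.8 and 6.45% of all tiles. A mean under 10% leaves little room for such differences, and the other 49825 tiles with a mean under 10% had similar shares, 0.530 and 0.712%.

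The tile with the smallest p was in Dnah2, an axonemal dynein heavy chain, at chr11:69471501-69471600, 77558 bp from the nearest RefSeq start. It had 2.84, 1.23 and 0% in low libraries, against 11.7, 9.59 and 10.5% in control libraries. All 3 low libraries were below all 3 controls, with a difference of -9.25 points (SE 1.27, unadjusted p = 1.51e-04, adjusted p = 0.487 by limma). In Mtus1, a microtubule-associated protein (chr8:41016601-41016700), the low libraries had 3.91, 0 and 2.82%, against 10.4, 10.3 and 13.9% in control libraries (difference -9.30, SE 1.67, adjusted p = 0.655 by limma). In C77080 (chr4:129248701-129248800), 307 bp from a RefSeq start, they had 6.17, 8.64 and 7.12%, against 14.1, 12.96 and 12.1% (difference -5.74, adjusted p = 0.655). The groups did not overlap in any of the 3 tiles.

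Among tiles higher in low libraries, that in Mex3a, an RNA-binding protein (chr3:88536301-88536400), had 11, 17.2 and 11.1% in low libraries, against 2.73, 4.44 and 6.67% in control libraries (difference 8.48, SE 2.03, adjusted p = 0.753 by limma). In Tmem51 (chr4:142072001-142072100) the low libraries had 13.2, 16.1 and 20.6%, against 1.20, 0 and 2.70% (difference 15.3, SE 3.71, adjusted p = 0.754). Tfap2a, a factor of surface ectoderm and neural crest, had 10.2, 10.8 and 11.2% in low libraries at chr13:40728301-40728400, against 5.88, 7.46 and 4.69% (difference 4.74, adjusted p = 0.771). Each of these groups stood apart from the other without passing the adjusted test. RNA of Mex3a was at 133 and 127 CPM in low libraries, against 130 and 142 CPM in control libraries, and RNA of Tfap2a at 4.83 and 7.59 CPM, against 8.08 and 5.36 CPM.

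Between high and control no tile passed either. Limma called 0 of the 5147 tiles, with a percent called of 0% over all tiles and a lowest adjusted p of 0.884. There were 110 at an unadjusted p under 0.05 (2.14%, against 4.44% of all tiles), 42 higher and 68 lower in high (2.64 and 1.8% of all tiles), and 234 with a mean-variance trend (4.55%, against 4.32%). Every high library was above every control in 215 tiles (4.18%, against 5.16%) and below in 247 (4.80%, against 4.07%). The median difference, high minus control, was -0.01 points (0.06 points without control 2), against 0.08 points over all tiles, with 95% of the 5147 between -3.19 and 3.06 points. Differences over 5 points were found in 27 tiles upward and 34 downward (0.525 and 0.661%, against 8.7 and 5.81% of all tiles). The other tiles with a mean under 10% had 0.558 and 0.496%.

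The Dnah2 tile again had the smallest p among the tiles lower in high: the high libraries had 0, 4.07 and 2.25% where the control libraries had 11.7, 9.59 and 10.5% (difference -8.50, SE 1.27, adjusted p = 0.884 by limma). This comparison and that of low use the same 3 control libraries. Nav2, a neuron navigator gene, had 1.47, 1.33 and 0% in high libraries, against 6.41, 4.41 and 5.13% in control libraries at chr7:49246501-49246600, 361 bp from a RefSeq start (difference -4.38, SE 0.79, adjusted p = 0.936). In Epha7, an ephrin receptor (chr4:28815601-28815700), the values were 2.72, 2.05 and 3.04%, against 6.17, 7.26 and 6.48% (difference -4.03, adjusted p = 0.938). In all 3 tiles every high library was below every control. The low and high libraries were all below the controls in Nav2 and C77080, as in Dnah2. In Tmem51, and in Irx5 described next, all low and high libraries were above the controls.

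Of the 3 tiles higher in high libraries with the smallest p, 2 lay in homeobox genes. Lhx1, a LIM homeobox gene needed for head formation, had 11.3, 8.75 and 12.7% in high libraries, against 1.90, 1.18 and 6.67% in control libraries at chr11:84522701-84522800 (difference 7.67, SE 1.67, adjusted p = 0.944 by limma). Irx5, an Iroquois homeobox gene (chr8:92360501-92360600), had 11.02, 11.6 and 8.37%, against 5.74, 6.12 and 5.53% (difference 4.55, adjusted p = 0.944). Schip1 (chr3:68494301-68494400) had 5.74, 3.57 and 7.25%, against 0, 1.52 and 0% (difference 5.01, adjusted p = 0.944). RNA of Lhx1 was at 76.0 and 62.4 CPM in high libraries, against 89.9 and 136 CPM in control libraries (limma log2 fold change -0.67, adjusted p = 0.866), and Irx5 had 25.9 and 25.8 CPM, against 23.9 and 19.98 CPM. The RNA differences did not pass the test either.

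Between high and low, limma called 0 of the 5147 tiles, with a percent called of 0% and a lowest adjusted p of 0.754. There were 135 at an unadjusted p under 0.05 (2.62%, against 4.71% of all tiles), 79 higher and 56 lower in high (2.39 and 2.32% of all tiles), and 271 with a trend (5.27%, against 4.59%). Every high library was above every low library in 263 tiles (5.11%, against 4.8%) and below in 221 (4.29%, against 4.76%), and the median difference was 0.04 points (-0.04 points with quantile normalization). Differences over 5 points were found in 44 tiles upward and 29 downward (0.855 and 0.563%, against 7.55 and 7.64% of all tiles). The other tiles with a mean under 10% had 0.739 and 0.397%. The Mtus1 tile had 15.3, 10.8 and 12.1% in high libraries, against 3.91, 0 and 2.82% in low libraries (difference 10.5, SE 1.67, adjusted p = 0.754), and the Mex3a tile 5, 4.62 and 1.25%, against 11, 17.2 and 11.1% (difference -9.47, adjusted p = 0.872). In both tiles the low libraries stood apart from high and control alike.

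Other tiles with the smallest p between high and low were higher in Mpnd (chr17:56009501-56009600, 9.76, 10.9 and 5.88% in high, against 1.10, 3.66 and 1.23% in low) and Dnajc22, a DnaJ cochaperone (chr15:99099301-99099400, 8.82, 5.23 and 5.86%, against 2.12, 1.81 and 0.498%). They were lower in Tns3, which links integrins to actin (chr11:8468701-8468800, 6.97, 5.71 and 8.23% in high, against 14.6, 12.3 and 10.6% in low), and in Tmpo, a protein of the nuclear lamina (chr10:91171001-91171100, 5.30, 5.12 and 6.19%, against 8.39, 8.43 and 9.22%). Their adjusted p by limma ran from 0.838 to 0.924.

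**Figure D5:**
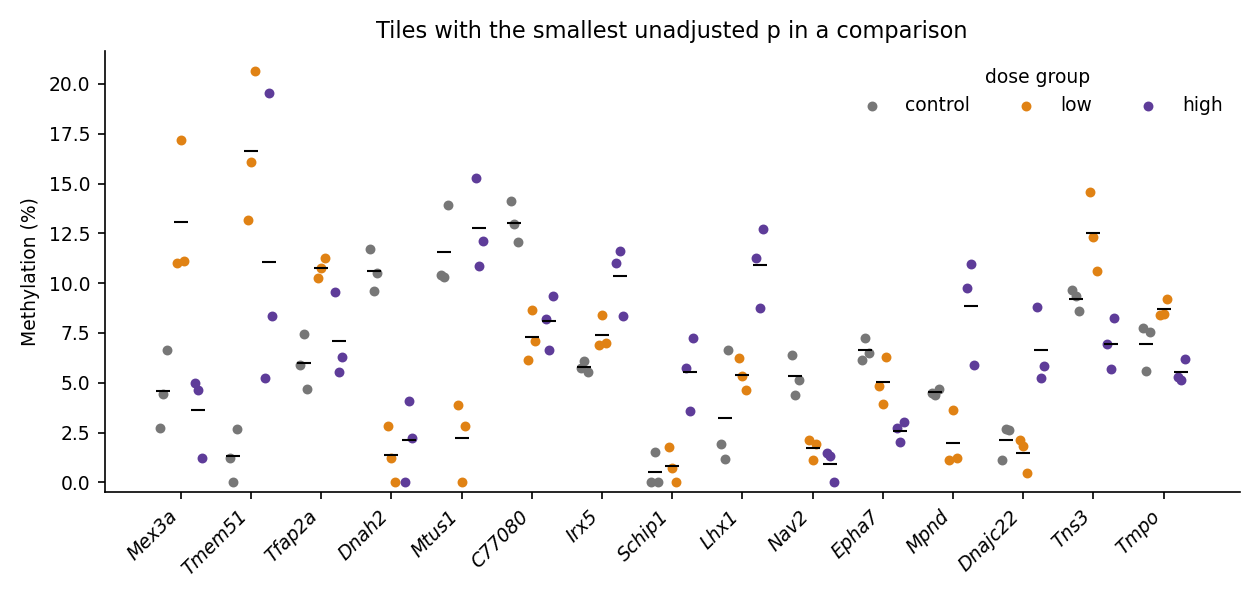
Methylation (y axis, percent) of the 15 tiles with the smallest unadjusted p in any comparison (x axis, by gene), each point a library, grey for control, orange for low and purple for high, with a black line at the group mean (n = 3). In Dnah2, C77080 and Nav2 both exposed groups lie below the controls, and in Tmem51 and Irx5 both lie above them. In Mex3a, Mtus1, Tfap2a and Tmpo only the low group stands apart from the other 2. In Schip1, Lhx1, Epha7 and Dnajc22 only the high group does. In Tns3 and Mpnd all 3 groups stand apart.

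The RNA of the 1281 genes that hold weakly methylated tiles was tested in a fit over all 12987 genes on log2(CPM + 1). Limma called 0 of the 1281 genes in each comparison, where percent called over all genes was 0% for low against control, 0.0077% for high against control (1 gene) and 0% for high against low. The lowest adjusted p were 0.796, 0.866 and 0.233. At an unadjusted p under 0.05, 18 were higher and 68 lower in low than in control (1.41 and 5.31%, against 1.9 and 2.97% of all genes), and 64 were higher and 29 lower in high than in control (4.996 and 2.26%, against 3.65 and 1.64%). In high against low 135 were higher and 41 lower (10.5 and 3.20%, against 5.69 and 2.22%).

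How many genes were called after adjustment depended on which low libraries were in the fit. Without low 2, limma called 16 of these genes for low against control (65 of all genes) and 64 for high against low (291 of all genes); low 1 is then alone in its group and is assumed to vary like the other groups. Without low 1, 1 gene was called for high against low, Esrrb, and 0 for low against control. Summed levels of cell type markers also differed between the libraries. The 8 embryonic markers summed to 926 and 800 CPM in high and 1154 and 1034 CPM in low, against 975 and 1071 CPM in control libraries, and 3 of 4 markers of maternal decidua to 16.2 and 13.4 CPM in high and 8.65 and 9.04 CPM in low, against 11.2 and 9.59 CPM in control libraries. Of the decidua markers, Des and Hand2 were higher in both high libraries than in the other 4. Prl8a2 overlapped, with 3.32 and 0.801 CPM in high, against 2.49 and 1.53 CPM in control libraries. The 7 trophoblast markers measured summed to 456 and 478 CPM in high and 536 and 486 CPM in low, against 465 and 472 CPM in control libraries. Both low sums were above the other 4, but no single trophoblast marker had both low libraries above the other 4. Cdx2 had 13.3 and 34.2 CPM in low, against 44.1 and 29.6 CPM in control libraries. The only blood marker measured, 1 of 3, had 1.90 and 2.04 CPM in high and 2.47 and 2.69 CPM in low, against 2.34 and 2.396 CPM in control libraries, without overlap. The 6 visceral endoderm markers summed to 1009 to 2270 CPM over all 6 libraries and overlapped between groups. The part of cell mixture in the RNA differences was not tested, and in bulk samples fewer cells of a type and less RNA per cell cannot be told apart.

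In low libraries the smallest p among these genes belonged to Gli2, a transcription factor of Hedgehog signalling, with 28.4 and 29.9 CPM in low libraries, against 42.7 and 39.2 CPM in control libraries. Limma gave a log2 fold change of -0.47 with an SE of 0.07 and an adjusted p of 0.796. The 3 weakly methylated tiles of Gli2 averaged 2.86 ± 1.31% in low and 4.06 ± 0.866% in control libraries (SD, n = 3 each). Bcan, a brain proteoglycan, was at 0.436 and 1.11 CPM in low, against 2.46 and 2.61 CPM in control libraries. Mrps24, a protein of the mitochondrial ribosome, had 19.7 and 20.4 CPM, against 16.2 and 14.7 CPM. Prickle1, of planar cell polarity, had 56.9 and 51.4 CPM, against 45.03 and 40.8 CPM. The RNA groups did not overlap in these genes, and none passed over all genes when all libraries were used. Without low 2, Bcan was called lower in low than in control, with a log2 fold change of -1.30 and an adjusted p of 0.0252 by limma, and the remaining low library is then assumed to vary like the other groups.

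In high libraries Esrrb, an orphan nuclear receptor of pluripotent and trophoblast stem cells, had 7.02 and 5.77 CPM where the control libraries had 1.06 and 1.07 CPM (limma log2 fold change 1.84, SE 0.35, adjusted p = 0.866). It was called only when low 1 or low 2 was left out of the fit. Its 6 weakly methylated tiles averaged 6.47, 5.24 and 5.61% in high libraries, against 5.59, 4.53 and 3.30% in control libraries, and overlapped. Tshz1, a zinc finger factor, was at 9.16 and 9.85 CPM in high, against 5.33 and 3.91 CPM in control libraries. In low libraries its RNA was at 3.11 and 4.78 CPM and overlapped control. Its 2 tiles averaged 5.88, 6.73 and 5.54% in high libraries, against 3.57, 4.42 and 3.99% in control libraries, without overlap. They averaged 6.22, 7.63 and 7.02% in low libraries, also above every control, where the RNA was not higher. That mean over tiles was not tested, and other genes that separate in the same way were not counted. Tcf7l2, an effector of Wnt signalling, had 26.3 and 24.5 CPM in high, against 33.5 and 30.5 CPM in control libraries. Bcl11a, a zinc finger repressor, had 10.1 and 8.80 CPM in high, against 12.95 and 14.6 CPM in control libraries.

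Between high and low, Fbn1, which encodes fibrillin of the extracellular matrix, was at 11.3 and 11.3 CPM in high libraries, against 5.28 and 6.69 CPM in low libraries (limma log2 fold change 0.82, SE 0.11, adjusted p = 0.233). Rarb, a retinoic acid receptor, had 4.05 and 3.85 CPM in high, against 0.813 and 1.46 CPM in low libraries, with a log2 fold change of 1.23 and the same adjusted p. Wnt3, the ligand that starts the primitive streak, was at 11.8 and 11.2 CPM in high, against 21.3 and 16.04 CPM in low libraries (log2 fold change -0.64, adjusted p = 0.290), and Trim36 at 8.17 and 7.47 CPM, against 12.6 and 10.5 CPM. Fbn1, Rarb and Wnt3 were called when low 2 was left out. The 4 weakly methylated tiles of Wnt3 averaged 2.47 ± 0.305% in high and 2.18 ± 1.26% in low libraries, and the 2 of Rarb 1.88 ± 0.704% and 1.95 ± 0.723% (SD, n = 3 each). In both genes methylation overlapped between groups where the RNA did not.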

How the data were processed

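Percent methylation of 100 bp tiles (9 columns) and CPM per gene (6 columns) were used as deposited by the authors. Columns were mapped to groups by the treatment in their names, and 0 columns were left unused. The labels do not say what the numbers in the names stand for, and they were not taken to pair samples. Per the submitters' processing notes, edgeR, SAMtools, TopHat, Bowtie 0.12.2, methylKit, Bismark, Bowtie2 and Trim Galore, and the builds mm8 and mm10, were used in roles not given. The expression table also holds 3 lines without a gene, 27.9 to 29.8% of its column totals, which were left out. CPM were whole multiples of 1 step (tolerance 0.01, 100% of values), but the scale of the totals is not given, so no count test was run.

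Methylation was tested with limma 3.58.1 (R 4.3.3) without a trend, and RNA with limma with a trend on log2(CPM + 1), a scale that understates changes of low genes, for genes with at least 1 CPM in 2 libraries, each in 1 fit of 3 groups over the whole table, with Benjamini-Hochberg adjustment at 0.05. The design had also foreseen a count test and a genome; CPM and RefSeq tables were given. The scripts were first tested on simulated data. No coverage is given, so no interval for a tile can be given. Nothing in the labels says that libraries of a group came from separate animals, so p-values measure the spread between these samples, which may be technical.

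Named were the 3 tiles with the smallest p per comparison and direction (1 per gene), the 4 with the largest SD, the 6 genes with most tiles, up to 2 genes per list and the 2 genes with the smallest expression p per direction. Other genes (those of the longest runs, nearby starts and lists) were picked with their values in view. The members and lists were chosen with earlier results of these data known. Alternatives were the variance model, scale, normalization, filter, pseudocount, cutoff, distance, block and leaving out each library.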

Additional observations from a re-analysis of the deposited data

How the results depend on the processing

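No weakly methylated tile was called under any alternative: a trend, a log2 ratio scale, quantile normalization, a minimum mean of 1%, only the 2 groups compared, a replicate block, cutoffs of 5 and 20%, distances of 1000 and 5000 bp, or leaving out each library. The members numbered 3402 with a cutoff of 5% and 7969 with a distance of 1000 bp. Counts of tiles without overlap moved with that number: with a cutoff of 5%, 142 were higher and 160 lower in low than in control, 136 and 156 in high than in control, and 158 higher in high than in low. With 1000 bp, 405 were lower in low than in control, and 325 higher and 372 lower in high than in control. With 5000 bp, 142 were higher in low than in control and 138 lower in high than in low. Leaving out 1 library, which can leave fewer values to overlap, gave 218 to 503 higher (4.24 to 9.77%) and 261 to 579 lower (5.07 to 11.2%) for low against control. It gave 215 to 482 (4.18 to 9.36%) and 247 to 554 (4.80 to 10.8%) for high against control. For high against low it gave 263 to 580 (5.11 to 11.3%) and 221 to 536 (4.29 to 10.4%). Shares of all tiles with a library left out are not given, so these ranges are not read as a result about the members. Genes called ranged from 0 to 16, 0 to 1 and 0 to 64 in these 3 comparisons when a library was left out, the highest without low 2.

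The replicate block called 0 tiles and 0 genes, with 117, 106 and 121 tiles at an unadjusted p under 0.05 in place of 128, 110 and 135. Deviations of same-numbered libraries correlated at 0.154 for control 1 and low 1 but at -0.04 to 0.05 for the other pairs, so the numbers were not taken to pair samples. The alternatives were also run for the 15 tiles and 12 genes named for the smallest methylation or RNA p per comparison and direction. Among them no difference changed sign. The median differences of all members, which are smaller than the spread between libraries, did: low minus control was 0.0013 points with quantile normalization and 0.03 points without control 2 (-0.12 points without low 3), high minus control 0.06 points without control 2, and high minus low -0.04 points with quantile normalization and -0.0061 points without high 3. Without coverage, low counts behind a tile cannot be seen.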

Other observations

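In some weakly methylated tiles the libraries numbered 1 stood apart from the others in all 3 groups. At chr19:42170801-42170900 in Zfyve27, which shapes the endoplasmic reticulum, the tile was at 0% in high 1, low 1 and control 1, while the other libraries had 9.01 and 10.3% in high and 13.6 and 20.4% in low, against 11.6 and 16.5% in control. In Rundc3a (chr11:102399801-102399900) the libraries numbered 1 had 1.83% in high and 1.83% in low, against 1.68% in control, and the other 6 libraries had 8.44 to 14.4%. In Rmdn2 (chr17:79615001-79615100) they had 2.78% in high and 2.36% in low, against 1.25% in control, and the others had 8.48 to 16.7%.

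All 3 libraries numbered 1 were below the other 6 in 94 of the 5147 tiles (1.83%, against 1.497% of all tiles) and above them in 42 (0.816%, against 1.02%). For number 2, 48 were below (0.933%, against 1.06% of all tiles) and 54 above (1.05%, against 0.97%), and for number 3, 43 were below (0.835%, against 0.835%) and 69 above (1.34%, against 1.43%). Vwf, which encodes von Willebrand factor, showed the opposite order at chr6:125573201-125573300, with 5.81% in high 1 and 8.33% in low 1, against 8.57% in control 1, and 1.09 to 2.73% in the other 6 libraries. These tiles were chosen after their values were seen, and what the numbers stand for is not given in the labels.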
